A study of Mus musculus with 16 samples.

Results

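Ddah1, Fuom, Tmem98, Zbtb10, Slco4a1, Aldh3b2, Anxa1 and Ldoc1 are 8 of the 31663 gene entries in the deposited expression table, and they were picked by symbol because untreated TSC cultured alone stood apart in them from the other 3 TSC-origin groups. The measured levels themselves chose them, with no numeric threshold, so how TSC alone differs from the other TSC-origin groups is described here without a test. All 8 genes were found and all 8 passed the filter on low values (at least 1 FPKM in at least 2 libraries). FPKM divides fragments by the gene's length and the library's mapped total, so levels of different genes can be compared on it.

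The RNA came from mouse trophectoderm stem cells (TSC, also TSCC in the protocol), which carry a red fluorescent protein, and from GFP-labelled induced pluripotent stem cells (iPSC). Either cell type was grown by itself, or both were mixed as single cells so that they built joint structures, which were parted by hand into a red TSC part and a green iPSC part. The 8 groups, of 2 libraries each, were the assembled TSC part with BMP4, the assembled TSC part, TSC alone with BMP4, TSC alone, the assembled iPSC part with BMP4, the assembled iPSC part, iPSC alone with BMP4 and iPSC alone. BMP4, a growth factor, was present for the last 24 hours before collection at day 3 where it is named, at a dose that is not given in the sources used here. All groups shared 5% Matrigel and ITSC medium with FGF4 and heparin, so TSC alone was not a culture without growth factors. Each library was made by Smart-seq2, a full-length protocol for little RNA, from a single picked colony or part of a structure. Since nothing in the labels states that both libraries of a group are separate cultures, every p-value here measures the spread between these libraries only.

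Trophoblast stem cells are the precursors of the placenta's own cell layers, and in culture they are kept as stem cells by FGF4 with heparin. When that signal is lost they leave the stem state and form cells of the labyrinth, spongiotrophoblast or giant cell layers. The 8 genes have different jobs. Ddah1 breaks down asymmetric dimethylarginine, a methylated amino acid that inhibits the nitric oxide synthases. Fuom is the fucose mutarotase, which interconverts the ring forms of fucose, and Tmem98 is a membrane protein that binds the transcription factor precursor MYRF and blocks its self-cleavage. Zbtb10 is a zinc finger protein with a BTB domain, known in human cells as a repressor of Sp transcription factor genes. Slco4a1 carries organic anions, thyroid hormone among them, into cells, and Aldh3b2 is an aldehyde dehydrogenase. Anxa1 is an annexin, a protein that binds membrane phospholipids in the presence of calcium, and is known for its anti-inflammatory action. Ldoc1 lies on the X chromosome, derives from a retrotransposon, and in mice regulates the hormone-producing differentiation of the placenta.

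The libraries differed in quality and in content. The FPKM of a library summed to between 666077 and 947859, and read counts are not given, so absolute depth is unknown. From the step size of low values, 1 fragment was worth between 0.796 and 2.57 times as much FPKM as in replicate 1 of TSC alone, the highest being in the assembled iPSC part with BMP4 (replicate 1). Between replicates, Pearson's r across genes ran from 0.929 to 0.973. In TSC alone 2083 genes (15.5%) differed over 2-fold between the replicates, the most of any group, against 454 in iPSC alone, the fewest. The 12 trophoblast stem markers summed to between 402 and 692 FPKM in the 8 TSC-origin libraries. In TSC alone 4 of them (Eomes, Esrrb, Sox2 and Bmp4) averaged under 1 FPKM. Elf5, a transcription factor that maintains the stem state, had 5.51 and 11.6 FPKM in TSC alone and 116 to 224 FPKM in the other 6 TSC-origin libraries. Tfap2c (140.5 and 99.4 FPKM), Gata3 (47.0 and 34.3 FPKM) and Ets2 (44.0 and 19.3 FPKM) were instead higher in TSC alone than in those 6. Cdx2, Hand1, Tead4 and Fgfr2 overlapped between TSC alone and those 6 libraries. The 14 differentiated trophoblast markers summed to between 169 and 1850 FPKM in those 6 libraries and to 8335 and 5430 FPKM in TSC alone, where Phlda2 gave 6773 and 4650 FPKM of the sum. Plac1 (745 and 293 FPKM), Cdkn1c (480 and 173 FPKM) and Pparg (102 and 49.5 FPKM) were also higher in TSC alone than in those 6. So were Dlx3 (87.2 and 81.0 FPKM), Gata2 (97.8 and 67.2 FPKM) and Ascl2 (45.3 and 114 FPKM). Gcm1, Syna and Synb overlapped between TSC alone and those 6 libraries. Prl3d1, Tpbpa and Ctsq, which define giant cells and spongiotrophoblast, were listed at 0 in all 8, while Prl2c2, another giant cell gene, had 4.41 FPKM in replicate 1 of TSC alone and was listed at 0 in the other 15 libraries. In the 8 iPSC-origin libraries the stem markers summed to between 12.98 and 286.5 FPKM and the differentiated markers to between 43.0 and 212 FPKM. The highest stem sum of iPSC origin was in the assembled iPSC part with BMP4 (replicate 2), which had 50.4 FPKM of Elf5, and replicate 2 of the assembled TSC part had 13.2 FPKM of Pou5f1, the pluripotency factor, so each held marker RNA of the other lineage. The 10 pluripotent and epiblast markers summed to between 231 and 1186 FPKM in TSC-origin and between 1114 and 4059 FPKM in iPSC-origin libraries. Utf1 gave 148 to 724 FPKM of the sum in TSC-origin and 97.6 to 541 FPKM in iPSC-origin libraries. Pou5f1 was at most 13.2 FPKM in TSC-origin and at least 49.5 FPKM in iPSC-origin libraries. The 8 endoderm markers summed to at most 7.66 FPKM and the 8 fibroblast markers to at most 4.31 FPKM in any library. In such bulk libraries, fewer cells that make an RNA and less of that RNA per cell cannot be told apart, which holds for each level below.

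Ddah1, Fuom and Tmem98 were low in TSC alone and higher in all other TSC-origin libraries. Ddah1 stood at 96.2 and 54.5 FPKM in the assembled TSC part with BMP4, at 72.9 and 55.9 FPKM in the assembled TSC part, at 78.6 and 111 FPKM in TSC alone with BMP4, and at 1.94 and 1.35 FPKM in TSC alone. Its 2 TSC alone libraries thus lay far below the other 6. Among those, the assembled TSC part with BMP4 overlapped with both other groups, while TSC alone with BMP4 lay above the assembled TSC part. In cells of iPSC origin, Ddah1 was at 6.48 and 32.03 FPKM in the assembled part with BMP4, 4.06 and 3.30 FPKM in the assembled part, 7.12 and 8.94 FPKM in iPSC alone with BMP4, and 7.74 and 7.58 FPKM in iPSC alone. Even the lowest of these 8 libraries was above both libraries of TSC alone. The value of 32.03 FPKM came from the iPSC-origin library with the highest trophoblast stem marker sum, and the part of that RNA in it was not tested.

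Tmem98 had 38.2 and 27.5 FPKM in the assembled TSC part with BMP4, 37.2 and 19.5 FPKM in the assembled TSC part, 34.6 and 28.6 FPKM in TSC alone with BMP4, and 0.588 and 0.159 FPKM in TSC alone. The 6 libraries from the other TSC-origin groups overlapped and were all above 19 FPKM, whereas neither library of TSC alone reached 1 FPKM. In iPSC origin its level was even, with 14.9 and 15.6 FPKM in the assembled part with BMP4, 11.6 and 14.8 FPKM in the assembled part, 18.4 and 18.2 FPKM in iPSC alone with BMP4, and 12.7 and 13.1 FPKM in iPSC alone.

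Fuom had 8.92 and 10.1 FPKM in the assembled TSC part with BMP4, 42.2 and 11.7 FPKM in the assembled TSC part, 20.5 and 23.0 FPKM in TSC alone with BMP4, and 0.468 FPKM and a listed 0 in TSC alone. The replicates of the assembled TSC part were far apart, and both still exceeded those of the assembled TSC part with BMP4. In iPSC origin it had 26.4 and 14.6 FPKM in the assembled part with BMP4, 19.0 and 29.8 FPKM in the assembled part, 13.3 and 17.3 FPKM in iPSC alone with BMP4, and 22.5 and 17.0 FPKM in iPSC alone. Fuom was thus lowest in TSC alone, and the assembled TSC part with BMP4 lay below all remaining groups without overlap. In those remaining groups the libraries ran from 11.7 to 42.2 FPKM. Fuom overlaps Prap1 on the opposite strand in the GENCODE M21 annotation, and whether the libraries keep strand is not given in the sources used here. Prap1 was above 0 in only 2 libraries, with at most 0.624 FPKM.

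Zbtb10, Slco4a1, Aldh3b2 and Anxa1 were high in TSC alone. Zbtb10 had 5.68 and 6.68 FPKM in the assembled TSC part with BMP4, 2.81 and 6.39 FPKM in the assembled TSC part, 2.71 and 2.27 FPKM in TSC alone with BMP4, and 22.4 and 24.2 FPKM in TSC alone. Both libraries of TSC alone exceeded all 6 others, and TSC alone with BMP4 was the lowest of the TSC-origin groups. In iPSC origin it stayed low, with 2.13 and 1.34 FPKM in the assembled part with BMP4, 2.08 and 2.18 FPKM in the assembled part, 0.188 and 0.471 FPKM in iPSC alone with BMP4, and 0.546 and 0.359 FPKM in iPSC alone. Here the 4 libraries of assembled cells were above the 4 of iPSC cultured alone.

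Slco4a1 was low outside TSC alone. It had 0.332 and 0.200 FPKM in the assembled TSC part with BMP4, 0.666 and 0.839 FPKM in the assembled TSC part, 0.532 and 0.557 FPKM in TSC alone with BMP4, and 19.7 and 14.02 FPKM in TSC alone. Its iPSC-origin levels were 0.417 and 0.834 FPKM in the assembled part with BMP4, 0.586 and 0.985 FPKM in the assembled part, 0.747 and 0.561 FPKM in iPSC alone with BMP4, and 2.28 and 1.31 FPKM in iPSC alone. Untreated iPSC alone was thus the next highest group, and it did not overlap with the groups below it.

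Aldh3b2 was graded over the TSC-origin groups. It had 0.0401 and 0.257 FPKM in the assembled TSC part with BMP4, 2.59 and 3.27 FPKM in the assembled TSC part, 6.11 and 6.78 FPKM in TSC alone with BMP4, and 26.2 and 41.2 FPKM in TSC alone. No 2 neighbours in this order overlapped. In iPSC origin all 8 libraries were at or below 0.273 FPKM, and 2 were listed at 0. Its longest GENCODE transcript was 86.7% identical to that of Aldh3b3 over 2102 aligned bases and 84.6% identical to that of Aldh3b1 over 1326, so reads may have been split between these paralogs and the level of Aldh3b2 is uncertain to that extent. Aldh3b3 was listed at 0 in all 16 libraries, and Aldh3b1 reached at most 1.06 FPKM.

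Anxa1 followed the same order as Aldh3b2 in cells of TSC origin. It had 0.166 and 1.46 FPKM in the assembled TSC part with BMP4, 1.0 and 3.53 FPKM in the assembled TSC part, 6.51 and 21.1 FPKM in TSC alone with BMP4, and 65.5 and 77.7 FPKM in TSC alone. The assembled groups overlapped with each other, while both were below TSC alone with BMP4, which was below TSC alone. In iPSC origin the values were 3.13 and 0.697 FPKM in the assembled part with BMP4, 1.09 and 0.678 FPKM in the assembled part, a listed 0 and 0.336 FPKM in iPSC alone with BMP4, and 0.801 and 0.765 FPKM in iPSC alone. A long noncoding RNA that overlaps Anxa1 on the opposite strand, 1500015L24Rik, has no row in the table, and its reads could be counted for Anxa1 if strand was not kept.

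Ldoc1 did not set TSC alone apart. It had 0.207 and 0.497 FPKM in the assembled TSC part with BMP4, a listed 0 and 0.871 FPKM in the assembled TSC part, 5.10 and 8.41 FPKM in TSC alone with BMP4, and 127 and 4.22 FPKM in TSC alone. Only replicate 1 of TSC alone was high, and replicate 2 lay below both libraries of TSC alone with BMP4. In iPSC origin it had 0.696 and 6.63 FPKM in the assembled part with BMP4, 4.60 and 2.31 FPKM in the assembled part, 4.98 and 2.37 FPKM in iPSC alone with BMP4, and 2.54 FPKM in both libraries of iPSC alone. The mean of TSC alone, 65.6 ± 86.8 FPKM (SD, n = 2), therefore rests on 1 library. Both assembled TSC groups were below TSC alone with BMP4 with no overlap.

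**Figure D1:**
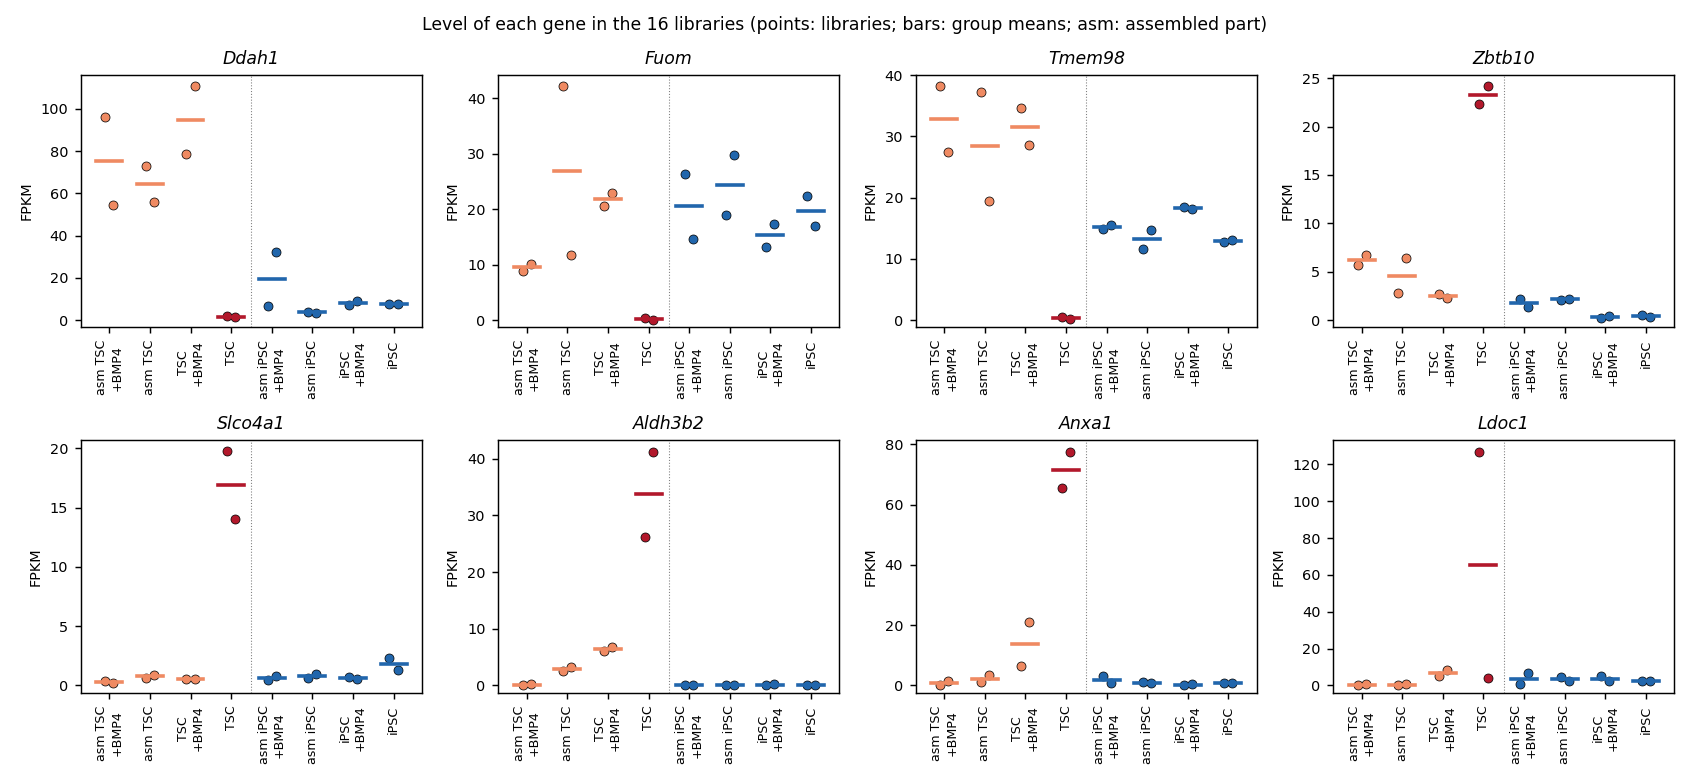
FPKM of each gene (linear axis, own scale per panel) in the 16 libraries, with points for libraries and bars for means of the 2 libraries of a group. TSC alone (dark red) is below the other TSC-origin groups in Ddah1, Fuom and Tmem98 and above them in Zbtb10, Slco4a1, Aldh3b2 and Anxa1, while 1 library of TSC alone carries Ldoc1.

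The size of the gap can be set against all genes. The gap was taken on log2(FPKM + 1) as the distance between the nearest library of TSC alone and the nearest of the other 6 TSC-origin libraries, and it is below 0 where they overlap. TSC alone was above the other 6 libraries with no overlap in 4 of the 8 genes and below them in 3, where 14.4% and 15.5% of the 13406 genes tested were above and below. This was the rule's own contrast, and nothing is read from that count. Gaps below were 4.24 for Ddah1, 3.69 for Tmem98 and 2.76 for Fuom, which ranked 5, 7 and 20 among all genes. Gaps above were 3.03 for Slco4a1, 1.80 for Aldh3b2, 1.61 for Zbtb10 and 1.59 for Anxa1, with ranks of 3, 25, 47 and 49. Over all genes, 203 had a gap above of more than 1 and 216 a gap below of more than 1. Past a gap of 2 there were 18 above and 50 below, and past a gap of 3 there were 3 above and 15 below, these genes included. For Ldoc1 the gap was -0.85, an overlap, with rank 7494. Against all other 14 libraries, iPSC origin included, the same 4 genes were above and the same 3 below without overlap, beside 10.0% and 9.00% of all genes.

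**Figure D2:**
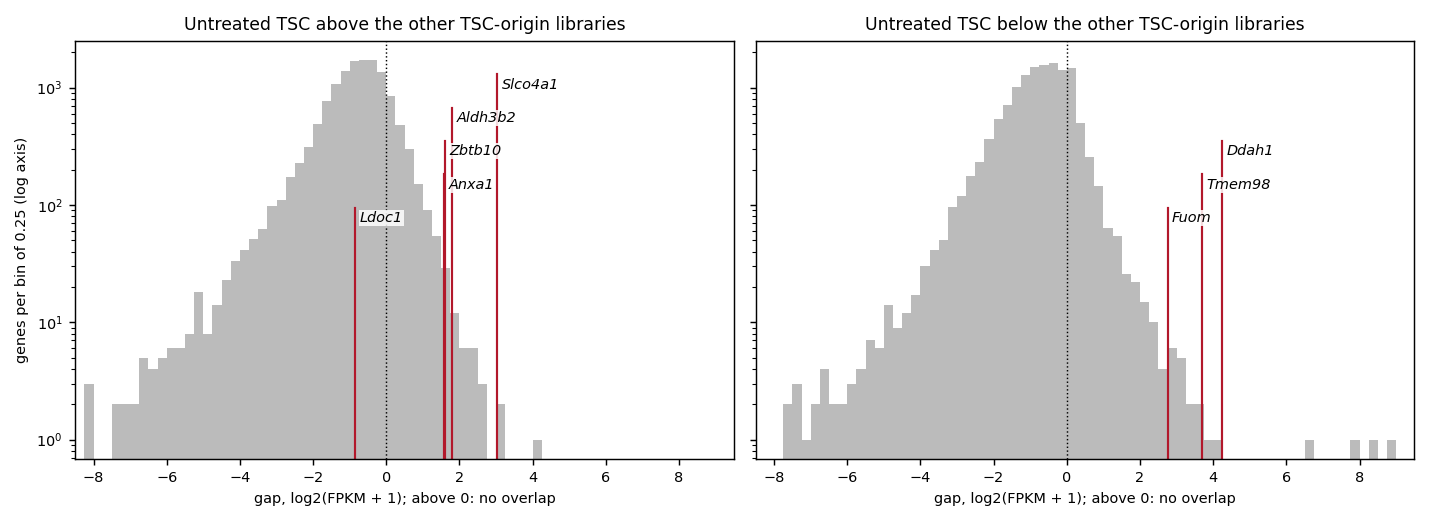
Gap between TSC alone and the other 6 TSC-origin libraries on log2(FPKM + 1), in bins of 0.25 over the 13406 genes tested (log axis), left for TSC alone above and right for TSC alone below. Red lines mark the 8 genes, of which Ldoc1 at -0.85 lies inside the bulk and the other 7 lie between 1.59 and 4.24.

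The differences from TSC alone are listed as log2(FPKM + 1), a scale that understates the fold of low genes. Ddah1 differed by 4.80 in the assembled TSC part with BMP4, 4.62 in the assembled TSC part and 5.17 in TSC alone with BMP4, each minus TSC alone. For Tmem98 the same differences were 4.62, 4.37 and 4.58, and for Fuom 3.12, 4.27 and 4.23. Slco4a1 differed by -3.80, -3.33 and -3.51, close to even in the 3 groups, and Zbtb10 by -1.76, -2.19 and -2.80. Aldh3b2 differed by -4.89, -3.11 and -2.19 and Anxa1 by -5.42, -4.59 and -2.49, so in both the assembled groups were farther from TSC alone than BMP4-treated TSC were. Ldoc1 differed by -4.27, -4.24 and -1.77, and without replicate 1 of TSC alone the last became 0.54. All 3 comparisons share the TSC alone libraries and so are not separate evidence. TSC alone minus iPSC alone gave 5.34 for Anxa1, 5.02 for Aldh3b2, 4.07 for Zbtb10, 2.87 for Ldoc1, 2.68 for Slco4a1, -1.72 for Ddah1, -3.36 for Tmem98 and -4.08 for Fuom.

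The order of all 8 groups differed from gene to gene. For Ddah1 the 3 TSC-origin groups other than TSC alone came first, the middle one (the assembled TSC part with BMP4) overlapping with both others and TSC alone with BMP4 lying above the assembled TSC part, the assembled iPSC part with BMP4 and both iPSC alone groups overlapped below them, and then came the assembled iPSC part and, last, TSC alone. Tmem98 likewise had those 3 TSC-origin groups first, all above the iPSC-origin groups. In Fuom the 6 highest groups each overlapped with the next, and the assembled TSC part with BMP4 and then TSC alone were set below them without overlap. For Zbtb10, TSC alone was followed by the assembled TSC groups, TSC alone with BMP4, the assembled iPSC groups and the iPSC alone groups, and each of these 5 sets lay above the next. Aldh3b2 and Anxa1 had TSC alone, TSC alone with BMP4 and the assembled TSC part as the highest 3, with no overlap between these neighbours, and all remaining groups lower on average. For Slco4a1, TSC alone and iPSC alone were the 2 highest, and all others lay below 1 FPKM. For Ldoc1, TSC alone and TSC alone with BMP4 overlapped at the top and the assembled TSC groups were lowest.

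The promoters of 6 of these genes are in the RefSeq promoter table (GRCm38.p6), and 5 are shown, those of genes in which both libraries of TSC alone stood apart. Zbtb10 and Aldh3b2 have no entry there. Each line gives the 250 bases upstream of the first listed start on the gene's own strand, 5′ to 3′, and capitals mark matches on either strand to 1 of 5 short motifs. GGGCGG is read by SP and KLF factors, GCCNNNGGC by TFAP2 factors and GGAATG by TEAD factors. The motif AGATAA is read by zinc finger proteins of the Gata family, and the letters TATAAA form the box at which many core promoters are bound. The positions are chr3:145758442-145758691 (+) for Ddah1, chr11:80810116-80810365 (+) for Tmem98, chr7:140102442-140102691 (-) for Fuom, chr2:180455995-180456244 (+) for Slco4a1 and chr19:20390672-20390921 (-) for Anxa1.
Ddah1: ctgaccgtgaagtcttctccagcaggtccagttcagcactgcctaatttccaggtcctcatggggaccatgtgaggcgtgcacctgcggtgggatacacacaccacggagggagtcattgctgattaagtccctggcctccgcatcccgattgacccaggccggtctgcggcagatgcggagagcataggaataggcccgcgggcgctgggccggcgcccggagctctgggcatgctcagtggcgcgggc
Tmem98: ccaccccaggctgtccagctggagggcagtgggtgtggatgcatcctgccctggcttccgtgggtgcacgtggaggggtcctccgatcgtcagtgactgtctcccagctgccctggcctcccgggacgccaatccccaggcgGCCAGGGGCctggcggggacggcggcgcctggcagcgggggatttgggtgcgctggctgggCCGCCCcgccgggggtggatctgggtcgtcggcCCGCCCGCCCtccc
Fuom: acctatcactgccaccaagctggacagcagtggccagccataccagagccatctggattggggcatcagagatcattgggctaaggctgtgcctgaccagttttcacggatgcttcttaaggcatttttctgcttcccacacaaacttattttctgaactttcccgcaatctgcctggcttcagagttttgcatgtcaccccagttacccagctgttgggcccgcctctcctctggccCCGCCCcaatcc
Slco4a1: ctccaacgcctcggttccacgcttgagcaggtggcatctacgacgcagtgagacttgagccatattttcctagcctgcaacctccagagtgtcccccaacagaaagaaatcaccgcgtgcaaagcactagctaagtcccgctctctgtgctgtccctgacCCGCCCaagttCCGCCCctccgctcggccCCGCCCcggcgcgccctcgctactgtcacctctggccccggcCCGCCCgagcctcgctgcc
Anxa1: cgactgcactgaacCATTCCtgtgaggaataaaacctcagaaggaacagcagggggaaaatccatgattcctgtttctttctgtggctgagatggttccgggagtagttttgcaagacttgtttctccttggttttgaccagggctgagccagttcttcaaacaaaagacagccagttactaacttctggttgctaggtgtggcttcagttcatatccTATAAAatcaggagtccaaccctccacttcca

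These windows differ in base composition. Over all 32851 windows of this length in the table, the median was 52.4% G and C with 6 CpG. Ddah1 had 64% and 17 CpG, Tmem98 74.8% and 20 CpG, and Slco4a1 64.8% and 21 CpG, while Anxa1 had 46% and 2 CpG. Fuom had 54% and 4 CpG. The motif GGGCGG, found in 32.7% of all windows, matched 4 times in Slco4a1, 3 times in Tmem98 (the last 2 overlapping) and 1 time in Fuom, whose second listed start holds 3. The second listed start of Slco4a1, whose window does not overlap with the one shown, had no GGGCGG, 1 match to GCCNNNGGC, 54.8% G and C and 4 CpG. GCCNNNGGC, found in 13.7% of all windows, matched in Tmem98, starting 108 bases upstream. TATAAA, in 12.4%, and GGAATG, in 12.6%, both matched in Anxa1, at 32 and 236 bases upstream. AGATAA, in 9.99% of all windows, matched in none of the 5, and Ddah1 held no match to any of the 5 motifs. A match is a description of the letters only.

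There were 7 comparisons that hold no library of TSC alone, and the 8 genes were tested in them with limma on log2(FPKM + 1), adjusted over all 13406 genes. Those with TSC-origin libraries are not free of the choice, since the same libraries were the other side of the rule, and their counts stand beside the share of all genes without being read against it. The 2 comparisons within iPSC origin compare no library that the rule used. In all 7 the SE still draws on the spread pooled over all 16 libraries, TSC alone included. In the 7 comparisons, 13 of 56 values passed, and 22 had an unadjusted p under 0.05. Over all 13406 genes, limma called from 25 (BMP4 in iPSC origin) to 3562 (assembly in iPSC origin) in the same comparisons. Nothing is therefore read from the total, and the share of all genes is given with each comparison below.

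With BMP4 and cultured alone, Ddah1, Aldh3b2, Anxa1 and Zbtb10 were higher in TSC than in iPSC. Ddah1 differed by 3.39 ± 0.52 (log2, SE; limma adjusted p = 0.000963), Aldh3b2 by 2.69 ± 0.27 (limma adjusted p = 9.52e-05) and Anxa1 by 3.48 ± 0.57 (limma adjusted p = 0.00154), all kept under each of the 23 alternative settings. Zbtb10 differed by 1.40 ± 0.32 (limma adjusted p = 0.0107), but the call was lost without replicate 1 of TSC alone with BMP4 (adjusted p = 0.0566) and without replicate 1 of iPSC alone with BMP4 (adjusted p = 0.0922). Of the 8 genes 4 were higher and 0 lower, with 7.62% of all genes higher and 10.6% lower, and the median difference was 1.08 in the 8 genes and -0.09 in all genes, from which, as from the medians of the other comparisons with TSC-origin libraries, nothing is read. Tmem98 (0.75 ± 0.30, limma adjusted p = 0.105), Fuom, Ldoc1 and Slco4a1 did not pass.

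Between the assembled parts without BMP4, Ddah1, Aldh3b2 and Tmem98 were higher in the TSC part than in the iPSC part. The difference was 3.80 ± 0.52 for Ddah1 (limma adjusted p = 0.000744) and 1.92 ± 0.27 for Aldh3b2 (limma adjusted p = 0.00095), both kept under all 23 settings, with Ddah1 at 3.99 when the 2 libraries of mixed lineage were left out. Tmem98 differed by 0.99 ± 0.30 (limma adjusted p = 0.0417), a call lost under 11 of the 23, among them a pseudocount of 0.1 (adjusted p = 0.11), quantile normalization (adjusted p = 0.114) and the fit without replicate 1 of the assembled TSC part (0.54, adjusted p = 0.343). Zbtb10 passed only without that same library, at 1.24 (adjusted p = 0.0441), and had 0.76 (adjusted p = 0.126) with it. The 1.24 rests on the mixed library of that group alone, and without both libraries of mixed lineage Zbtb10 had 0.28 (adjusted p = 0.622). Here 11.1% of all genes were higher and 5.89% lower, and the median was 0.72 over the 8 genes and 0.12 over all genes.

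With BMP4, the assembled TSC part had more Ddah1, Zbtb10 and Tmem98 than the assembled iPSC part, but each call depended on single libraries. Ddah1 differed by 2.22 ± 0.52 (limma adjusted p = 0.0167), and by 1.15 (adjusted p = 0.115) when replicate 1 of that iPSC part was left out, which keeps the library with trophoblast markers, and by 1.82 (adjusted p = 0.136) without replicate 1 of the TSC part. Zbtb10 differed by 1.40 ± 0.32 (limma adjusted p = 0.016) and was lost without either library of the TSC part (adjusted p = 0.0655 and 0.0963) and without replicate 2 of the iPSC part (adjusted p = 0.0698). Tmem98 differed by 1.04 ± 0.30 (limma adjusted p = 0.0466) and was lost under 17 of the 23 settings. Without both libraries of mixed lineage, Ddah1 differed by 3.30 (adjusted p = 0.000479), Zbtb10 by 1.19 (adjusted p = 0.0324) and Tmem98 by 1.07 (adjusted p = 0.0555). Over all genes 5.32% were higher and 4.82% lower, with medians of -0.09 for the 8 genes and 0.04 for all. Fuom (-0.98, limma adjusted p = 0.224) passed only in the fit without the 2 libraries that held RNA of the other lineage, at -1.38 (adjusted p = 0.0345).

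The TSC-origin groups other than TSC alone were the other side of the rule, so comparisons between them are not free of the choice. Aldh3b2 was the 1 gene of the 8 that passed the test between these groups. In the assembled TSC part it fell with BMP4, by 1.77 on the log2 scale (SE 0.27, limma adjusted p = 0.0105), beside 0.373% of all genes higher and 0.127% lower. That call was lost without the 2 libraries of mixed lineage (-1.65, adjusted p = 0.122) and without replicate 1 of the assembled TSC part with BMP4 (adjusted p = 0.145), replicate 1 of the assembled TSC part (adjusted p = 0.0694) or replicate 2 of it (adjusted p = 0.107). With BMP4 in both groups, Aldh3b2 was lower in the assembled TSC part than in TSC alone, by -2.70 ± 0.27 (limma adjusted p = 0.00165), which was kept under all 23 settings, with 0.157% of all genes higher and 0.142% lower. Anxa1 had -2.93 ± 0.57 in that comparison (limma adjusted p = 0.0572) and passed without replicate 1 of TSC alone with BMP4 (-3.70, adjusted p = 0.0209), in fits that left out either library of the BMP4-treated iPSC part (adjusted p = 0.0452 and 0.0453) and after quantile normalization (adjusted p = 0.0485). The other 6 genes passed in neither comparison. The differentiated trophoblast markers summed to 169 and 1148 FPKM in the assembled TSC part with BMP4, 1292 and 695 FPKM in the assembled TSC part and 1850 and 1326 FPKM in TSC alone with BMP4. The assembled groups overlapped in this sum, both lay below TSC alone with BMP4, and Phlda2 made up most of it (158 and 1107, 1261 and 648, and 1768 and 1173 FPKM in the same order). The part of these markers in the result was not tested.

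In cells of iPSC origin, assembly went with more Zbtb10. Averaged over both BMP4 states, the assembled parts exceeded iPSC alone by 1.07 ± 0.23 (limma adjusted p = 0.00507), and the call was kept under all 23 settings. The 4 assembled libraries lay between 1.34 and 2.18 FPKM and the 4 of iPSC alone between 0.188 and 0.546 FPKM, without overlap. It was the only one of the 8 to pass, beside 5.95% of all genes higher and 20.6% lower, and the median over all genes was -0.19, or -0.01 after quantile normalization and 0.04 after upper quartile rescaling. With BMP4 in iPSC origin, limma called 0 of the 8 (0.104% of all genes higher and 0.0821% lower), and 2 had an unadjusted p under 0.05. Ddah1 had 0.90 ± 0.36 (limma adjusted p = 0.414), and 1.44 (adjusted p = 0.0257) when replicate 1 of the assembled part with BMP4 was left out, a value that then rests on the library with 32.03 FPKM. Without both libraries of mixed lineage it was 0.37 (adjusted p = 0.565). Slco4a1 had -0.44 ± 0.20 (limma adjusted p = 0.467).

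**Figure D3:**
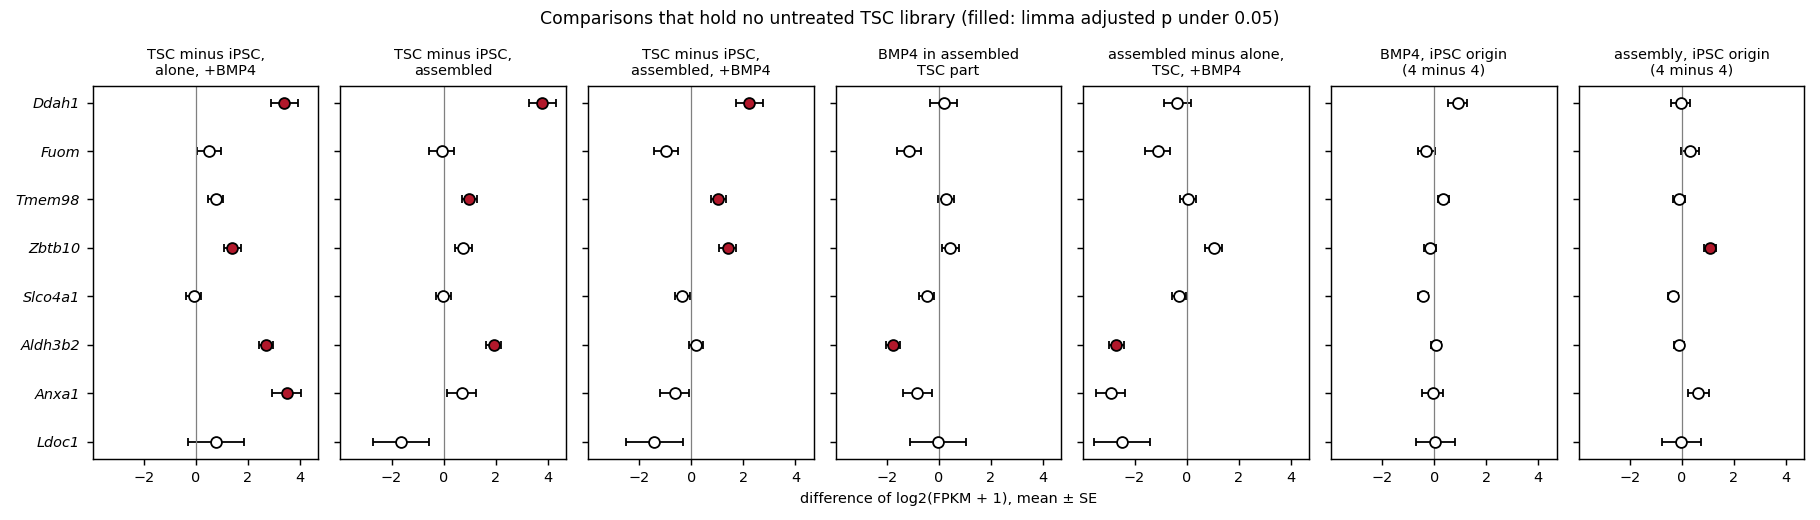
Difference of log2(FPKM + 1) for each gene in the 7 comparisons that hold no library of TSC alone, as points with SE bars from limma, filled where the adjusted p is under 0.05. Ddah1 lies between 2.22 and 3.80 in the 3 comparisons of TSC with iPSC, and Aldh3b2 is at -1.77 and -2.70 in the 2 comparisons within TSC origin.

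Whether an effect differed between the lineages or culture forms was tested in 3 further contrasts. Of the 24 values 0 passed with limma, and 5 had an unadjusted p under 0.05. The share of all genes that passed was not taken for these contrasts, so nothing is read from the count. The contrasts between lineages hold TSC-origin libraries from the other side of the rule, so they are not free of the choice. The lowest adjusted p was that of Aldh3b2, whose assembly effect with BMP4 was -2.52 ± 0.39 in TSC minus iPSC (limma adjusted p = 0.0576). For Anxa1 the same contrast gave -4.12 ± 0.80 (limma adjusted p = 0.252). A difference of these effects between lineages was thus not shown for any of the 8.

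How alike a pair of the genes ran over the libraries depended for some pairs on TSC alone, whose libraries the choice used. Only some pairs are given. Across all 16 libraries Aldh3b2 and Anxa1 had a Pearson's r of 0.937 on log2(FPKM + 1), and 0.809 over the 14 libraries without TSC alone. Ddah1 and Tmem98 had 0.772 and, without TSC alone, 0.87. Fuom and Tmem98, by contrast, had 0.851 over 16 libraries and -0.09 over 14, and Slco4a1 and Zbtb10 had 0.645 and -0.575. The strongest r of any pair, that of Tmem98 and Slco4a1, was -0.943, and -0.567 without TSC alone. The libraries are shared by all genes and fall into groups, so these are descriptions with no test.

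Among 8354 other genes with a highest group mean of at least 5 FPKM, the 2 whose levels ran most like each member over the 16 libraries were taken. The 16 include the TSC alone libraries that the choice of the 8 genes used. A high r here can thus restate that TSC alone stood apart, and no r without TSC alone was taken for these genes. Ddah1 was closest to Fpgs (r = 0.953) and Efna4 (0.933), and Fpgs, which adds glutamates to folates, averaged 21.1 to 83.8 FPKM in the other 7 groups and 15.2 FPKM in TSC alone. For Tmem98 they were the ETS factor Etv4 (0.955), with 7.53 to 20.4 FPKM in the other 7 groups and 0.0979 FPKM in TSC alone, and Fhl3 (0.950). Fuom was closest to Smim3 (0.939) and Gemin7 (0.933). Anxa1 was closest to Exoc3l4 (0.957) and to Pparg (0.953), a nuclear receptor the placenta needs, which averaged 0.478 FPKM in the assembled TSC part with BMP4, 0.170 FPKM in the assembled TSC part, 10.5 FPKM in TSC alone with BMP4 and 75.7 FPKM in TSC alone. Aldh3b2 was closest to the endocytic adaptor Epn3 (0.968) and to Pttg1ip (0.958), with Epn3 at 0.752, 2.56, 10.7 and 46.0 FPKM in the same 4 groups. Zbtb10 went with Gskip (0.978) and Dlg5 (0.972), and Slco4a1 with Fam90a1b (0.942) and Ankrd2 (0.936). Ldoc1 had the weakest likeness, with Zfp972 (0.861) and Dmrtc1b (0.854).

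The relatives of the 8 genes were followed through lists of their families and pathways, in which 46 other genes passed the filter. TSC alone was above the other 6 TSC-origin libraries in 12 of the 46 and below them in 6, beside 14.4% and 15.5% of all genes, which is a description of the same contrast as the rule. Among the annexins, Anxa4 averaged 31.6 FPKM in the assembled TSC part with BMP4, 39.1 FPKM in the assembled TSC part, 37.6 FPKM in TSC alone with BMP4 and 201.5 FPKM in TSC alone, so it too was high there. Anxa5 went the other way, with 312.8, 198.2, 330.7 and 160.9 FPKM in the same order. Anxa2, the annexin with the highest mean in any group, had 69.9 and 163 FPKM in the assembled TSC part with BMP4, 363 and 464 FPKM in the assembled TSC part, 250 and 221 FPKM in TSC alone with BMP4, and 361 and 677 FPKM in TSC alone. It overlapped between TSC alone and the assembled TSC part.

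Ddah2, the other dimethylarginine hydrolase, ran against Ddah1 with 13.8 FPKM in the assembled TSC part with BMP4, 23.7 FPKM in the assembled TSC part, 26.7 FPKM in TSC alone with BMP4 and 62.9 FPKM in TSC alone. Carm1, an arginine methyltransferase of the same list, averaged between 8.40 and 24.3 FPKM over the 8 groups. Of the fucose genes, Fuca1, a lysosomal fucosidase, averaged 10.6 to 17.4 FPKM in the other TSC-origin groups and 31.6 FPKM in TSC alone, and Tsta3, which makes GDP-fucose, lay between 44.9 and 65.6 FPKM in all 8 groups. Fuca2 averaged between 13.9 and 43.8 FPKM. Myrf, the partner of Tmem98, averaged at most 1.12 FPKM in any group. At these low levels both its TSC alone libraries lay below the other 6 TSC-origin libraries. Chic2 had at least 2.14 FPKM in the other 6 TSC-origin libraries and 1.57 and 1.12 FPKM in TSC alone. Aldh3a2 was between 6.42 and 8.29 FPKM in the other TSC-origin groups and at 11.3 FPKM in TSC alone. Of the SLCO carriers, Slco2a1 averaged at most 5.83 FPKM and Slco5a1 at most 1.53 FPKM. Peg10, a retrotransposon-derived gene like Ldoc1 that the placenta needs, averaged 21.2, 14.7, 45.3 and 157.7 FPKM in the assembled TSC part with BMP4, the assembled TSC part, TSC alone with BMP4 and TSC alone, and its 2 libraries of TSC alone were close, at 152 and 163 FPKM. Peg3, an imprinted zinc finger gene that the list also held though it is not derived from a retrotransposon, had 42.8 ± 3.61 FPKM in the assembled TSC part with BMP4 and 10.0 ± 4.70 FPKM in TSC alone (SD, n = 2 each). Sp3 averaged between 6.21 and 14.3 FPKM.

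In the tested comparisons the largest differences that passed among these relatives were those of Sp5, Anxa5 and Anxa2. Of the 46, 5 were higher and 5 lower in TSC alone with BMP4 than in iPSC alone with BMP4, beside 7.62% and 10.6% of all genes. In the assembled TSC part 7 were higher and 2 lower than in the assembled iPSC part, beside 11.1% and 5.89%, and between those parts with BMP4 1 was higher and 3 lower, beside 5.32% and 4.82%. These counts are near the shares of all genes. In the 2 comparisons within TSC origin and for BMP4 in iPSC origin limma called 0 of the 46, with an unadjusted p under 0.05 in 8 for BMP4 in the assembled TSC part, 9 for assembly of TSC with BMP4 and 4 for BMP4 in iPSC origin. With assembly in iPSC origin, 3 rose and 10 fell, near the 5.95% and 20.6% of all genes, and 7 of the 10 (Anxa11, Ddah2, Fuca1, Gmds, Pofut2, Zcchc18 and Sp3) lost the call after both scalings. Of 9 annexins other than Anxa1, 4 (Anxa2, Anxa4, Anxa5 and Anxa6) were higher in the assembled TSC part than in the assembled iPSC part, the largest being Anxa2 (3.14 ± 0.51, limma adjusted p = 0.00183) and Anxa5 (2.04 ± 0.38, limma adjusted p = 0.00336). The same 4 were higher in TSC alone with BMP4 than in iPSC alone with BMP4, led by Anxa5 (3.35 ± 0.38, limma adjusted p = 0.00018) and Anxa2 (2.19 ± 0.51, limma adjusted p = 0.0118). Anxa4 lost the call between the assembled parts after both scalings. Between TSC and iPSC alone with BMP4, the call was lost under 10 of the 23 settings for Anxa6, 3 for Anxa4 and 2 for Anxa2. Anxa5 kept it under all 23. Sp5, a Wnt target of the Sp family, was lower in TSC origin in all 3 comparisons, by -4.29 ± 0.50 (limma adjusted p = 0.000205) with BMP4 and alone, -4.20 ± 0.50 (limma adjusted p = 0.000503) assembled and -4.10 ± 0.50 (limma adjusted p = 0.000495) assembled with BMP4, and no setting lost these calls.

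**Figure D4:**
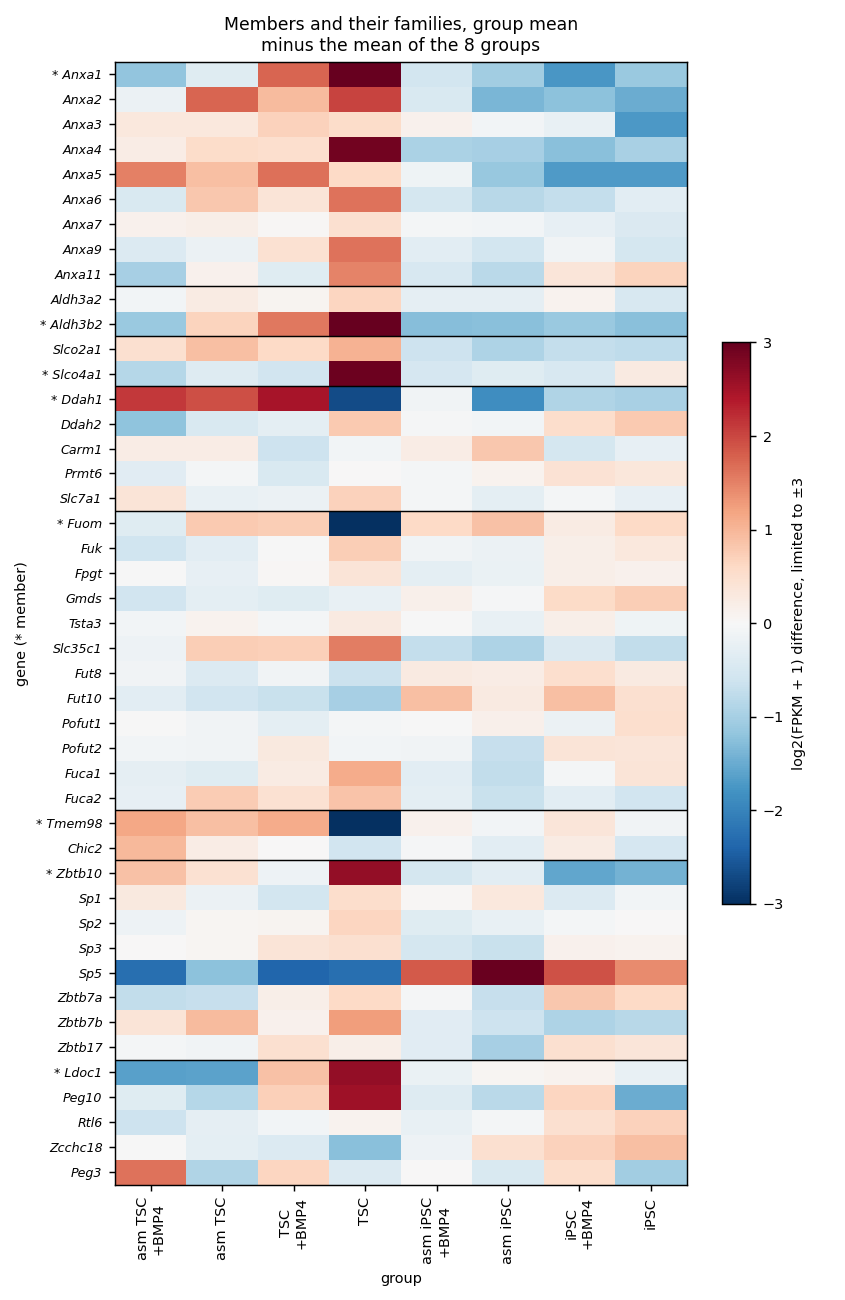
Group means of log2(FPKM + 1) for 45 genes of the 8 family lists with a highest group mean of at least 2 FPKM, minus the mean of the 8 groups, limited to ±3, with * marking the 8 genes. TSC alone is dark blue in Ddah1, Fuom and Tmem98 and dark red in Anxa1, Anxa4, Aldh3b2, Slco4a1, Zbtb10, Ldoc1 and Peg10.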

How the data were processed

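RNA was measured in 16 libraries, 2 in each of 8 groups. The deposited values are FPKM, which the authors computed per gene symbol. Per the submitters' processing notes, the tools were CASAVA and TopHat2 and the genome builds mm9 and hg19, named without roles or versions. For the program behind FPKM, its annotation and its filters, nothing is given in the sources used here. Read counts are unknown, so no counting interval is given, and a 0 is reported as listed.

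The 8 genes and all lists were chosen with earlier results of these data known. The filter of 1 FPKM or more in 2 or more libraries left genes (13406 of 31663 entries, of which 12 share a symbol) that were fitted as log2(FPKM + 1) by limma 3.58.1 under R 4.3.3, with eBayes and a trend. The fit took all 16 libraries as 8 group means and had 8 residual degrees of freedom. Tests were two-sided and adjusted by Benjamini-Hochberg over all genes of a comparison, with a threshold of 0.05. Contrasts with TSC alone, which the choice used, were not tested. Before use, the script was tested on simulated data.

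Genes named beside the 8 were, for each of them, the 2 with the highest Pearson's r among genes with a highest group mean of at least 5 FPKM and no predicted name. From each family list they were the 3 with the highest group means and those that passed with a change of at least 2 (log2, at most 3 per list and comparison), and other relatives named were chosen after their values were seen. Alternatives were quantile normalization, upper quartile rescaling, a pseudocount of 0.1, dropping the filter, a replicate block, leaving out TSC alone, leaving out both libraries with RNA of the other lineage (replicate 2 of the assembled TSC part, and replicate 2 of the BMP4-treated assembled iPSC part), and leaving out each library in turn. Promoter windows and their positions came from RefSeq (GRCm38.p6). No genome of the mm9 build was used, so no gene coordinates in that build are given. Tables were made with pandas 2.3.3 and numpy 2.4.6 in Python 3.11.15, and figures with matplotlib 3.10.9.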

Additional observations from a re-analysis of the deposited data

How the results depend on the processing

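Of the 13 calls among the 8 genes, 7 were kept under all 23 alternatives: Ddah1, Aldh3b2 and Anxa1 in TSC alone with BMP4 minus iPSC alone with BMP4, Ddah1 and Aldh3b2 in the assembled TSC part minus the assembled iPSC part, Aldh3b2 in the assembled TSC part with BMP4 minus TSC alone with BMP4, and Zbtb10 with assembly in iPSC origin. Of these, only the Zbtb10 call compares no library that the rule used to choose the genes. Its SE still draws on the spread pooled over all libraries of the fit. Leaving out 1 library at a time left 0 to 3 of the 3 genes called between the assembled parts with BMP4, 0 to 1 called with BMP4 in the assembled TSC part, 1 to 2 between assembled and lone TSC with BMP4, and 0 to 1 with BMP4 in iPSC origin. Without the 2 libraries that held RNA of the other lineage, 0 genes were called with BMP4 in the assembled TSC part, and after quantile normalization 2 were called between assembled and lone TSC with BMP4. The cause was not tested. Ldoc1 in TSC alone with BMP4 minus TSC alone was -1.77, and ran from -4.08 without replicate 2 of TSC alone to 0.54, a reversal, without replicate 1 of it. With a replicate block the counts were 4, 3, 3, 1, 1, 0 and 1, as without it. Libraries with the same replicate number showed no strong shared shift, as r of the replicate differences over 28 pairs of groups ran from -0.185 to 0.119. It exceeded 0.1 in 2 of the pairs. The labels do not state whether such libraries were paired, and this r cannot decide it. Depth is unknown, so levels near 0 cannot be told from each other. A fit that leaves out 1 library of a group assumes that the other varies like the other groups.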
